A study of Danio rerio with 12 samples.

Results

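The axoneme and flagellum genes described here are the Ensembl gene IDs of zebrafish whose symbol, in upper or lower case, begins with dnah, dnai, dnal, dnaaf, tekt, rsph, cfap, spag, odf or ropn. The rule picked 78 of the 33737 gene IDs in the count tables, and 76 of these 78 had enough reads to be tested. Counts came from 12 RNA-seq libraries of testis tissue from adult wild-type zebrafish, each kept in culture for 48 h. The 6 Fsh libraries received trilostane together with Fsh, and the 6 control libraries received trilostane alone. Trilostane blocks an enzyme of steroid hormone synthesis. It was present in both groups, so all values describe testis exposed to it. How far steroid synthesis was inhibited is not shown by these libraries. Fsh is the pituitary hormone that acts on the somatic cells of the testis. The submitters describe the 6 libraries of each group as biological replicates, without saying whether a fish gave tissue to both groups. The labels give no dose for either agent.

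The axoneme is the microtubule core of motile cilia and of the sperm tail: a ring of outer doublets surrounds a central pair. Dynein motors sit on the doublets as outer and inner arms, each built from heavy, intermediate and light chains, and assembly factors in the cytoplasm fold and assemble these arms before transport. Radial spokes carry signals between the central pair and the arms, tektins and other proteins line the inside of the doublets, and outer dense fiber proteins and ropporins belong to accessory structures of the mammalian sperm tail. In the testis these genes are transcribed mainly in late spermatocytes and spermatids, the germ cells that build the flagellum, and hormones reach those cells largely through the somatic cells around them. Several of the prefixes are names of convenience: SPAG7 and the scaffold proteins SPAG9 and spag9a, for example, are not structural proteins of the axoneme.

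Library totals ran from 4695095 to 11497588 counts. Levels are given as CPM, read counts brought to a common library size with the TMM factors of edgeR. CPM is not divided by transcript length, so levels of different genes are not compared, and long genes such as the dynein heavy chains gather more reads per transcript. Germ line markers were present in every library: DDX4 lay between 333 and 539 CPM in Fsh libraries and between 318 and 616 CPM in control libraries, and SYCP1, a protein of meiotic chromosomes, lay between 1270 and 1988 CPM in Fsh libraries and between 1470 and 2326 CPM in control libraries. Among markers of the somatic cells, gsdf, inha and igf3 of 7 tested Sertoli cell genes were called higher with Fsh. So were insl3 and HSD11B2 of 10 tested Leydig cell genes, beside 0.865% of all tested genes. With 1 library left out, edgeR's adjusted p reached 0.0977 for gsdf, 0.0769 for inha and 0.0847 for HSD11B2. It stayed under 0.05 for igf3 and insl3. In tissue RNA, fewer cells of a type and less RNA per cell cannot be told apart.

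No axoneme or flagellum gene was called higher or lower with Fsh. Of the 76 tested members, 0 were called higher by edgeR's quasi-likelihood test at an adjusted p under 0.05, where 0.865% of all 19317 tested genes were, and 0 were called lower, where 0.766% of all tested genes were. At an unadjusted p under 0.05 there were 8 members, against 17.4% of all tested genes, and all 8 had a fitted log2 fold change below 0. That count ran from 3 (without Fsh library 1 or 3) to 13 (without Fsh library 4) with 1 library left out. DESeq2 called 0 members and 5.51% of the genes it tested, and limma-voom called 0 members and 1.87% of all tested genes. With quality weights for each library, limma-voom called 10.4% of all tested genes and 2 members, rsph10b and CFAP96, both lower. In none of the 76 members did the 6 Fsh values lie wholly apart from the 6 control values, which was so for 1.93% of all tested genes.

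For most members the confidence interval bounded the change to less than 2-fold. The tested members gathered between 251 counts (DNAH11) and 398844 counts (dnah5l) over the 12 libraries, with a median of 12856.5, and 74 of 76 had at least 10 counts in every library. The 95% confidence interval of the fold change stayed inside 2-fold in both directions for 72 of 76 members (94.7%), against 78.8% of all tested genes. For 51 members (67.1%) it stayed inside 1.5-fold, against 47.5% of all tested genes. The 4 members whose interval reached beyond 2-fold were dnaaf3, CFAP96, DNAH11 and TEKT3. The 2 untested members were the second gene ID named DNAL1 (ENSDARG00000097505), with 0 counts in every library, and cfap97d2, with 43 counts over all libraries. A level of 3 counts would be between 0.259 and 0.641 CPM depending on the library. Whether reads could be assigned to the second DNAL1 was not tested, so its 0 counts do not bound its level.

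The fitted changes lay slightly below 0. Their median over the 76 members was −0.08 on the log2 scale with quartiles of −0.18 and −0.01, beside a median of 0.00 and quartiles of −0.19 and 0.19 over all tested genes. The log2 fold change was below 0 in 58 of 76 members, and in 49.7% of all tested genes. The size of this lean depended on single libraries. With 1 library left out, between 38 members (without control library 3) and 62 members (without Fsh library 2) were below 0, and the median ran from −0.15 (without control library 6) to −0.0012 (without control library 3). With Fsh library 5 left out, 45 of 76 members were below 0. With both left out, a choice made after the values were seen, 30 of 76 members were below 0 and the median was 0.05. Control library 3 was high and Fsh library 5 low in nearly all members, so leaving out both raises most estimates by construction. That fit therefore cannot show whether the lean is real. With scaling by library size only, 49 of 76 members and 44.4% of all tested genes were below 0.

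**Figure D1:**
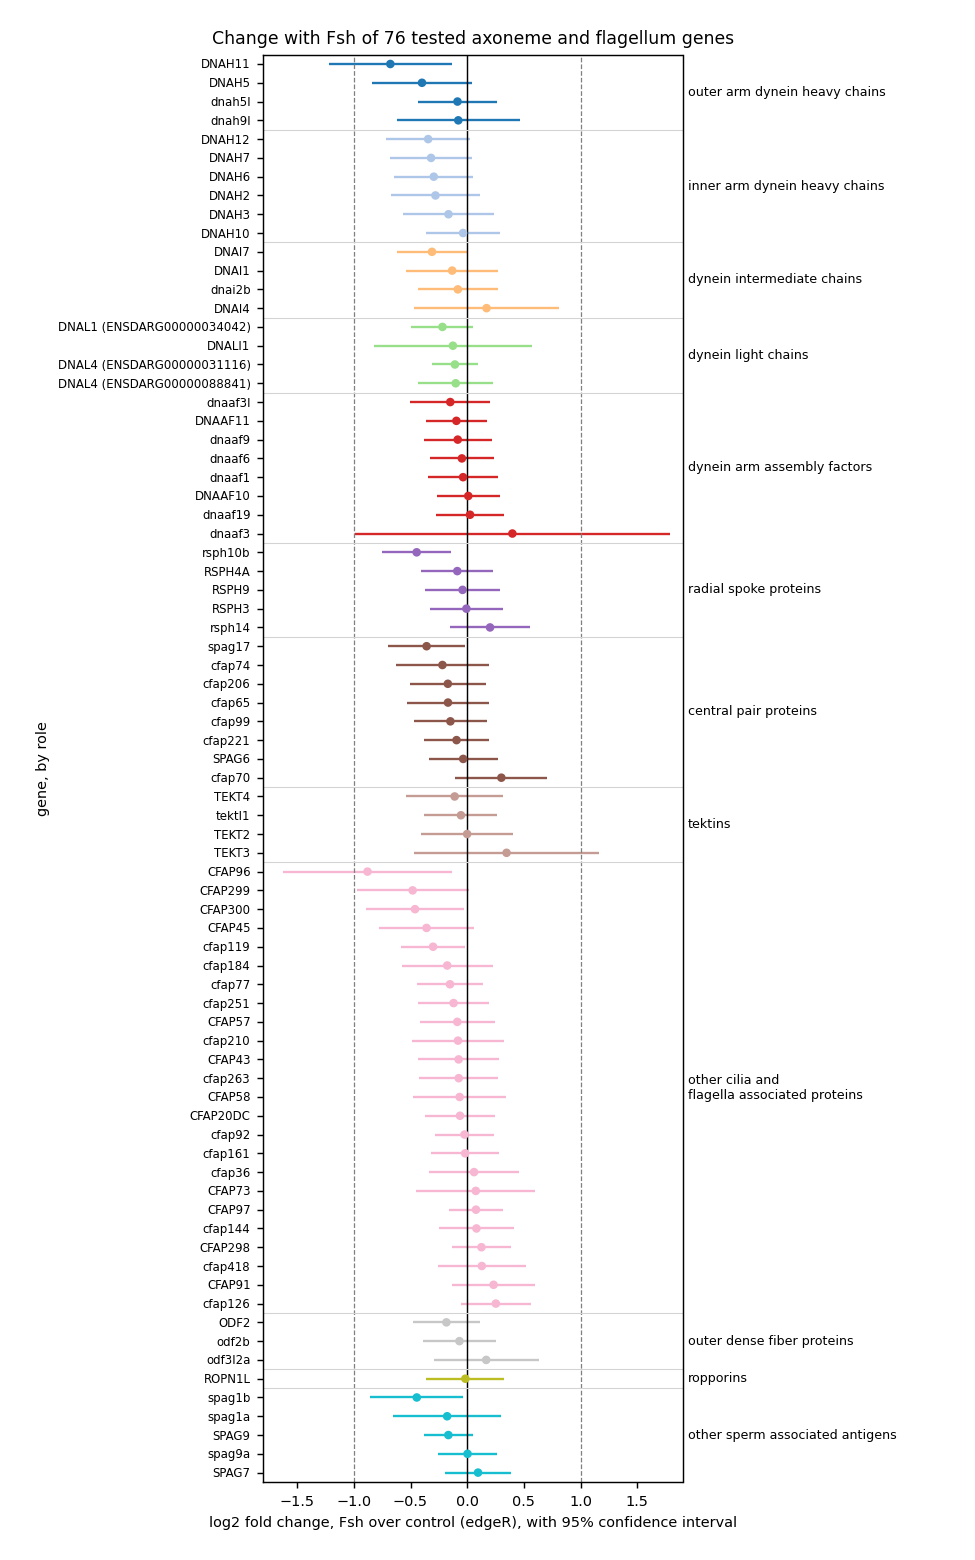
Fitted log2 fold change (Fsh over control, horizontal axis) of the 76 tested members, grouped by role down the page, with points for the estimate and bars for the 95% confidence interval; dashed lines mark 2-fold. Most bars cross 0 and stay between the dashed lines, and those of dnaaf3, CFAP96, DNAH11 and TEKT3 reach beyond them.

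The dynein heavy chains are the motor subunits of both arms. All 10 had a fitted log2 fold change below 0, with a median of −0.29, and none passed the test; 8 of 10 were below 0 without Fsh library 5, 8 of 10 without control library 3, and 6 of 10 without both. Among the 4 of the outer arms, dnah5l had 2879, 3905 and 4227 CPM (lowest, median, highest) in Fsh libraries, against 3072, 3882 and 5650 CPM in control libraries. The groups overlapped over most of their range, and the highest value of all was that of control library 3. Its log2 fold change was −0.09 ± 0.16 (SE), with a 95% confidence interval of −0.43 to 0.26 and an adjusted p of 0.831 (edgeR). Without control library 3 the estimate was 0.04, and without control library 3 and Fsh library 5 together it was 0.11. DNAH5, the outer arm motor most often mutated in human primary ciliary dyskinesia, had 148, 213 and 309 CPM in Fsh libraries and 202, 279 and 405 CPM in control libraries, a log2 fold change of −0.40 ± 0.20 (adjusted p = 0.337). The least sampled heavy chain was DNAH11, with 0.753, 2.08 and 2.24 CPM in Fsh libraries and 2.10, 3.16 and 3.85 CPM in control libraries. All 6 Fsh values were below the control mean, and Fsh library 4 lay far below the rest of its group. The log2 fold change of DNAH11 was −0.68 ± 0.25 (adjusted p = 0.185). The last of the outer arm chains, dnah9l, had a log2 fold change of −0.08 ± 0.25.

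The 6 inner arm heavy chains had log2 fold changes between −0.34 and −0.04. DNAH6 had 668, 1002 and 1145 CPM in Fsh libraries, against 898, 1149 and 1608 CPM in control libraries. Every Fsh value was below the control mean, yet the ranges overlapped and the log2 fold change of −0.30 ± 0.16 had an adjusted p of 0.376. The estimate was −0.18 without control library 3. DNAH12, with a mean of 358 ± 94.5 CPM in Fsh libraries and 455 ± 76.1 CPM in control libraries (SD, n = 6 each), had the smallest p of these chains, with a log2 fold change of −0.34 ± 0.17 (adjusted p = 0.324). DNAH7 averaged 556 ± 111 CPM with Fsh and 694 ± 156 CPM in controls, and DNAH2 averaged 727 ± 149 CPM with Fsh and 882 ± 221 CPM in controls. In both, all 6 Fsh values lay below the control mean, yet the ranges overlapped. For DNAH7 the control mean was raised by control library 3, at 952 CPM, where the next highest control had 753 CPM. The log2 fold change was −0.32 ± 0.17 for DNAH7 (adjusted p = 0.353) and −0.28 ± 0.18 for DNAH2 (adjusted p = 0.467). With 1 library left out it ran from −0.41 to −0.21 for DNAH7 and from −0.39 to −0.17 for DNAH2. DNAH10 averaged 656 ± 129 CPM with Fsh and 672 ± 123 CPM in controls, with a log2 fold change of −0.04 ± 0.15. As a share of the summed CPM of the members, the 10 heavy chains held 44.2 ± 1.9% in Fsh libraries and 45.7 ± 1.9% in control libraries, and dnah5l alone held 22.5 ± 1.5% in Fsh libraries and 21.7 ± 1.5% in control libraries.

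Among the intermediate chains, which tie the motors of an arm together, 3 of 4 had a log2 fold change below 0. DNAI1, of the outer arm, had 102, 147 and 219 CPM in Fsh libraries and 122, 159 and 239 CPM in control libraries. The ranges overlapped almost wholly, and the log2 fold change was −0.13 ± 0.19 (adjusted p = 0.766). DNAI7 had 77.3, 104 and 131 CPM in Fsh libraries and 106, 123 and 159 CPM in control libraries, with a log2 fold change of −0.31 ± 0.14, an unadjusted p of 0.0476 and an adjusted p of 0.281. The 4 tested light chains had log2 fold changes between −0.22 and −0.10. The detected DNAL1 (ENSDARG00000034042), a light chain of the outer arm, had 76.9, 107 and 114 CPM with Fsh and 90.1, 121 and 154 CPM in controls, a log2 fold change of −0.22 ± 0.13 (adjusted p = 0.406). DNALI1, an inner arm light chain, was among the members with the widest spread in Fsh libraries, with a coefficient of variation of 58.2%: it lay between 11.8 and 49.2 CPM in Fsh libraries and between 13.8 and 32.9 CPM in control libraries.

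Of the 8 assembly factors, 7 had estimates close to 0. Log2 fold changes of dnaaf1, DNAAF10, DNAAF11, dnaaf19, dnaaf6, dnaaf9 and dnaaf3l lay between −0.15 and 0.03, with adjusted p from 0.686 to 0.980. The remaining gene, dnaaf3, is needed in several species to assemble both kinds of arm. It had 30.3, 41.2 and 97.0 CPM in Fsh libraries and 0, 39.4 and 64.3 CPM in control libraries. Control library 2 held 0 reads of dnaaf3, where 3 counts would be 0.263 CPM, while the 11 other libraries held at least 30.3 CPM. Its log2 fold change of 0.40 ± 0.65 had a 95% confidence interval of −0.99 to 1.79. The estimate was 0.08 without Fsh library 4 and 0.11 without control library 2. A gene annotated under the related symbol dnaaf3l had 63.2 to 111 CPM in control libraries and no library at 0.

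The radial spoke protein rsph10b had the smallest p of all members. It had 28.4, 47.9 and 58.7 CPM in Fsh libraries, against 56.7, 64.5 and 69.9 CPM in control libraries. All 6 Fsh values lay below the control mean, and the groups overlapped only through Fsh library 4, which was above the lowest control library. The means were 47.1 ± 10.2 CPM with Fsh and 64.2 ± 4.89 CPM in controls, and the log2 fold change was −0.45 ± 0.14, with an unadjusted p of 0.0072 and an adjusted p of 0.124. Leaving out 1 library at a time gave adjusted p from 0.0629 to 0.226. Limma-voom with quality weights gave an adjusted p of 0.0334. In RefSeq's annotation of a later assembly, the span of rsph10b overlaps that of dlgap5, a gene of the mitotic spindle, and whether reads of that gene entered the count was not tested. The spoke head protein RSPH4A averaged 404 ± 76.7 CPM with Fsh and 429 ± 76.5 CPM in controls, and the other 3 spoke genes, RSPH3, RSPH9 and rsph14, had log2 fold changes between −0.04 and 0.20.

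Of the 8 genes grouped by hand as central pair proteins, 7 had a log2 fold change below 0. One of the 7 was cfap206 (−0.17 ± 0.16), whose place in this group was not checked. The central pair projection protein spag17 had 133, 150 and 183 CPM in Fsh libraries and 134, 205 and 262 CPM in control libraries. The Fsh values were all below the control mean, and control libraries 2 and 6 lay among them. Its log2 fold change was −0.36 ± 0.16 (unadjusted p = 0.0389, adjusted p = 0.260). By contrast cfap70 had 154, 185 and 292 CPM with Fsh and 87.4, 165 and 196 CPM in controls, and 5 of 6 Fsh values were above the control mean. Its estimate of 0.30 ± 0.19 was the third highest of the members (adjusted p = 0.443). The estimate was 0.14 without Fsh library 4, the highest, and 0.16 without control library 2, the lowest. The protein cfap74, also of the central pair, averaged 351 ± 68.4 CPM with Fsh and 409 ± 128 CPM in controls, and SPAG6 had a log2 fold change of −0.04 ± 0.14.

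**Figure D2:**
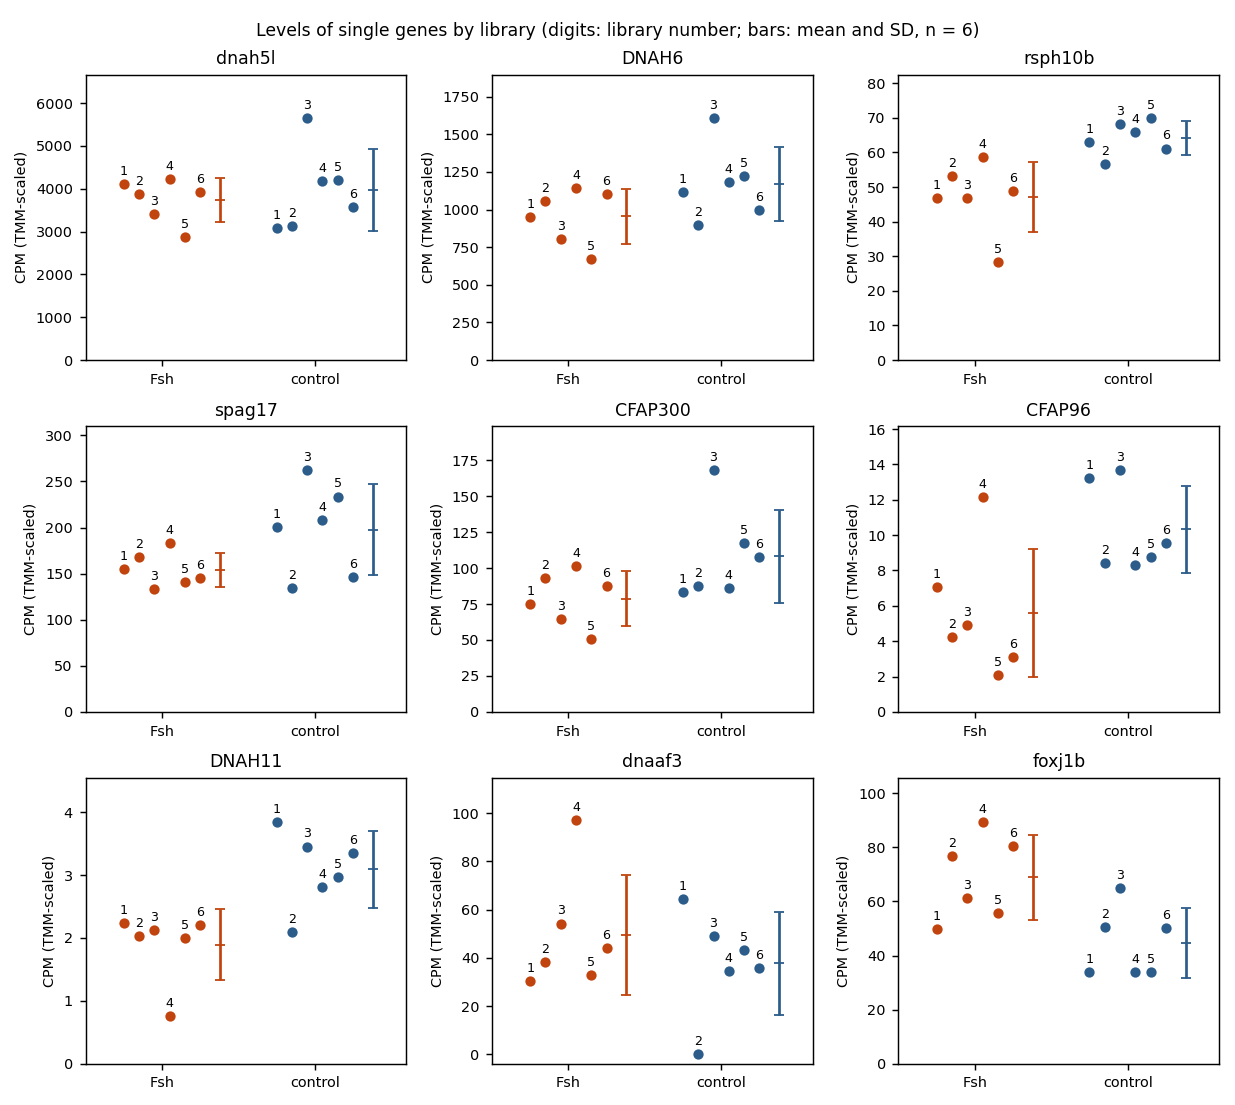
Level in CPM (vertical axis, TMM-scaled) of 8 members and of foxj1b in each of 6 Fsh libraries (left) and 6 control libraries (right); digits give the library number, and bars the mean and SD. Control library 3 stands highest in dnah5l, DNAH6, spag17, CFAP300 and CFAP96, and control library 2 is at 0 in dnaaf3.

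Tektins form filaments along the doublet wall, and their 4 genes had log2 fold changes between −0.11 and 0.35. The gene tektl1 averaged 213 ± 44.3 CPM with Fsh and 222 ± 37.0 CPM in controls. TEKT3 was sparse, with 2.91, 5.55 and 9.32 CPM in Fsh libraries and 1.76, 4.65 and 8.26 CPM in control libraries, and its coefficient of variation in controls was 55.6%. Its estimate of 0.35 ± 0.38 had an adjusted p of 0.685. The single ropporin, ROPN1L, which anchors signalling proteins in the flagellum, averaged 283 ± 53.1 CPM with Fsh and 286 ± 63.0 CPM in controls. The 3 outer dense fiber genes had log2 fold changes between −0.18 and 0.17; ODF2, also a centriole protein, averaged 117 ± 23.1 CPM with Fsh and 133 ± 19.7 CPM in controls (adjusted p = 0.528).

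The largest group was the 24 other tested cfap genes, of which 16 had a log2 fold change below 0 and 3 an unadjusted p under 0.05: CFAP96, CFAP300 and cfap119. CFAP96 was the member with the largest estimate. It had 2.10, 4.58 and 12.2 CPM in Fsh libraries, against 8.33, 9.17 and 13.7 CPM in control libraries. Fsh library 4 alone lay above the control mean, and 5 of 6 Fsh values lay below every control value. The log2 fold change was −0.88 ± 0.35 (adjusted p = 0.207), and limma-voom with quality weights gave an adjusted p of 0.0483. In RefSeq's later assembly the gene's span overlaps those of pdlim3b and sorbs2b, which are muscle and adhesion genes, so its low counts are uncertain.

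CFAP300, which takes part in dynein arm assembly in humans, had 50.4, 81.5 and 101 CPM in Fsh libraries and 83.1, 97.3 and 168 CPM in control libraries. All Fsh values were below the control mean, Fsh library 5 was the lowest of 12 and control library 3 the highest. Its log2 fold change was −0.46 ± 0.20 (adjusted p = 0.255), and −0.29 without control library 3. CFAP299 had 91.8, 126 and 172 CPM with Fsh and 127, 160 and 315 CPM in controls. The value of 315 CPM was that of control library 3, and the next highest control had 182 CPM. The estimate for CFAP299 was −0.48 ± 0.23 with all libraries (adjusted p = 0.299) and −0.25 without that library. The cfap119 values averaged 113 ± 15.6 CPM with Fsh and 139 ± 24.5 CPM in controls (log2 fold change −0.30 ± 0.13, adjusted p = 0.254). CFAP43, which is mutated in men with malformed sperm tails, averaged 541 ± 99.6 CPM with Fsh and 570 ± 141 CPM in controls, and cfap251, of a complex at the base of the spokes, averaged 422 ± 67.4 CPM with Fsh and 459 ± 86.4 CPM in controls. The 24 estimates ran from −0.88 to 0.25. On the upper side of 0 were cfap126 (0.25 ± 0.14) and CFAP91 (0.23 ± 0.17), neither past the test.

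Among the 5 other spag genes, spag1b, a relative of the human dynein assembly factor SPAG1, had 6.19, 8.76 and 12.0 CPM in Fsh libraries and 8.22, 11.9 and 16.0 CPM in control libraries. The ranges overlapped and the log2 fold change was −0.45 ± 0.19 (adjusted p = 0.250). SPAG7 averaged 40.2 ± 2.63 CPM with Fsh and 37.7 ± 7.60 CPM in controls. The estimate for spag1a was −0.18 ± 0.22. The scaffold genes SPAG9 and spag9a had log2 fold changes of −0.17 ± 0.10 and 0.00 ± 0.12.

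Much of the variation between libraries was shared by the members. Their summed level was 13106 to 20195 CPM in Fsh libraries (mean 16708 ± 2522, SD, n = 6) and 14725 to 24233 CPM in control libraries (mean 18189 ± 3422), and they took 1.69 ± 0.27% of all counts with Fsh and 1.78 ± 0.24% in controls. The coefficient of variation had a median of 19.5% in Fsh libraries over the members and 20.2% over all tested genes. In control libraries it had a median of 21.1% over the members and 21.5% over all tested genes. Fsh library 5 was below the mean of the other Fsh libraries in 72 of 76 members and was the lowest of all 12 libraries in 27. Its exceptions were spag1a, TEKT4, ODF2 and DNAH11. Fsh library 4 was above the mean of the others in 66 members. Control library 3 was above the mean of the other controls in 75 of 76 members, SPAG7 being the exception, and was the highest of all 12 libraries in 42. It had the lowest TMM factor of all (0.891), which raises its CPM above what library size alone would give. Without that factor the members took 2.15% of its counts, against 1.46 to 1.91% in the other controls. The ratio of Fsh library 5 to the mean of the other Fsh libraries had a median of 0.80 over the members and 0.98 over all tested genes. The ratio of control library 3 to the mean of the other controls had a median of 1.35 over the members and 0.98 over all tested genes. Of the 12 role groups, 10 had their highest control sum in control library 3, outer dense fiber genes and the other spag genes being the exceptions, and 7 had their lowest Fsh sum in Fsh library 5. The summed inner arm heavy chains ran between 2397 and 4187 CPM with Fsh and between 3097 and 5116 CPM in controls, and the summed central pair genes between 1436 and 2233 CPM with Fsh and between 1453 and 2530 CPM in controls, with control library 3 the highest in both.

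**Figure D3:**
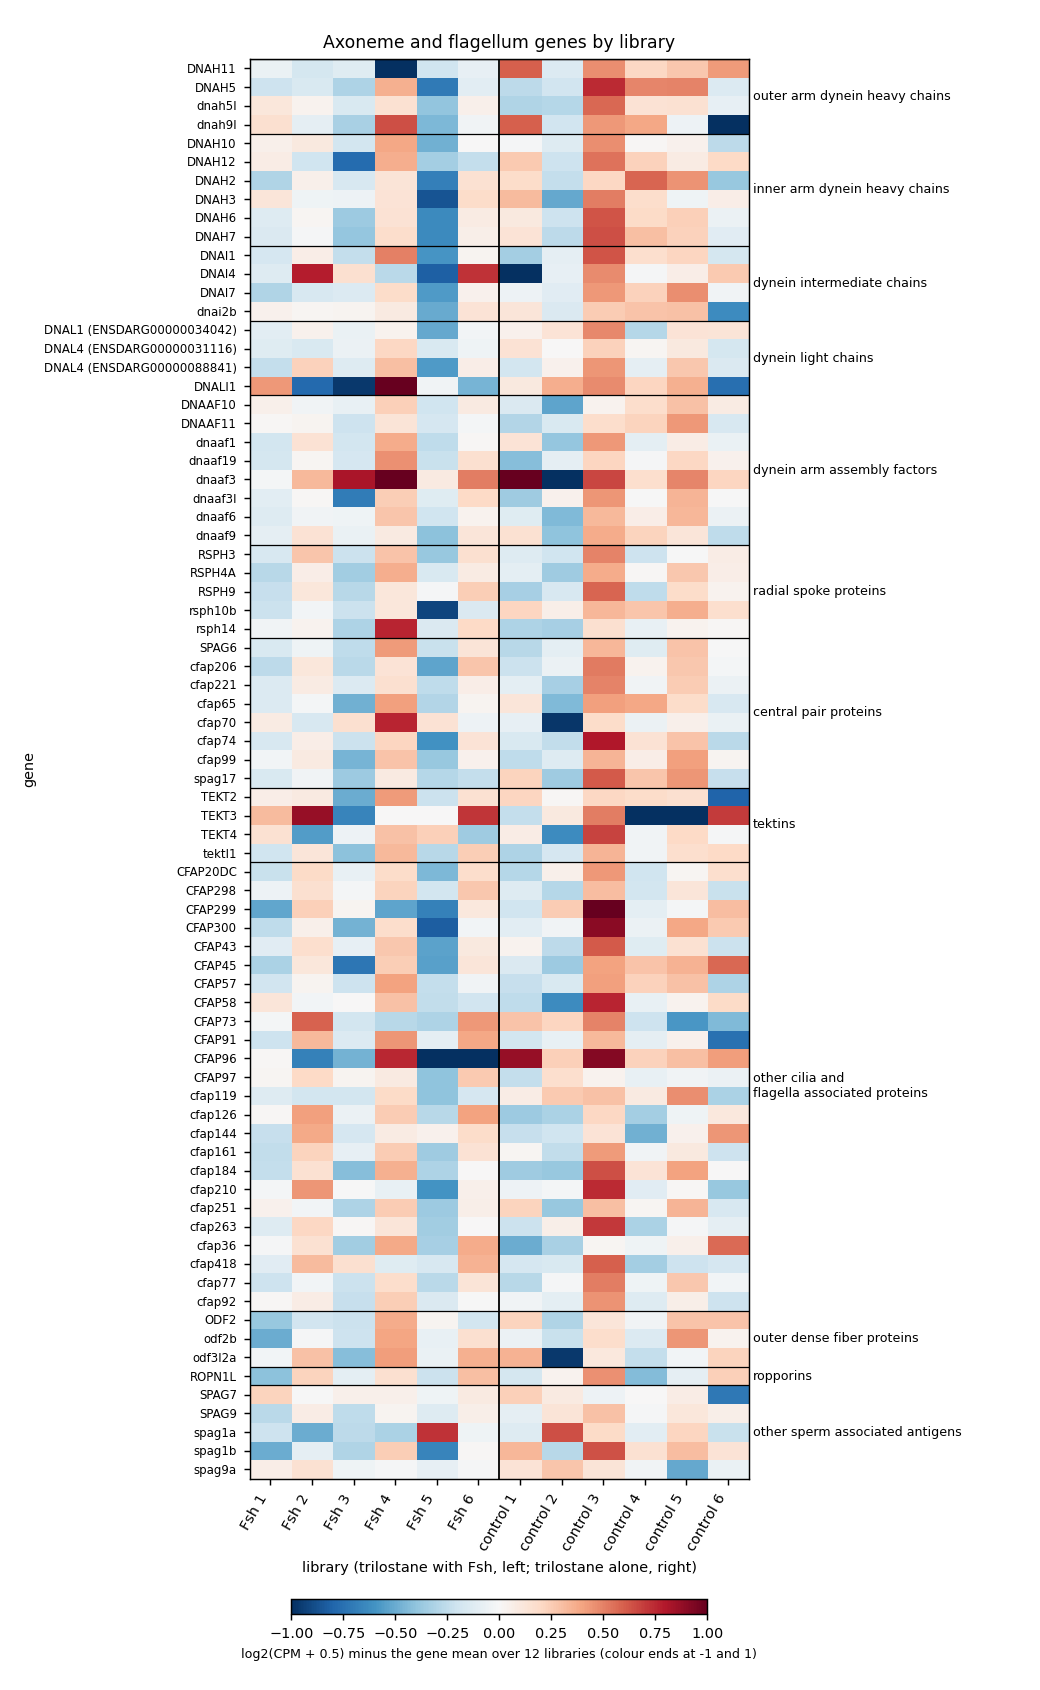
Level of the 76 tested members (rows, by role) in 6 Fsh libraries (left) and 6 control libraries (right); colour is log2(CPM + 0.5) minus the gene's mean over 12 libraries, ending at −1 and 1. Control library 3 is red and Fsh library 5 blue in nearly every row, and no row divides cleanly into Fsh and control.

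Marker levels of other cells moved with these libraries in part. Fsh library 5 had the lowest summed level of 17 meiotic germ cell genes, 2602 CPM against 3789 to 4004 CPM in the other Fsh libraries, and all 17 were below the mean of the others. The 8 tested spermatogonial and germ line genes were also all below it. The same library stood out for other cells. In it 5 of 6 leukocyte genes, all but cd4-1, were at the highest level of the Fsh libraries. The 6 summed to 247 CPM there, against 60.2 to 97.3 CPM in the other Fsh libraries. All 4 smooth muscle and vessel genes were at their highest of 12 libraries. A list of 5 multiciliated epithelium genes was divided. The epithelial gene epcam had 123 CPM, against 12.5 to 26.3 CPM in the other Fsh libraries and 56.5 CPM in control library 2. The keratin genes krt8 and krt18a.1 were also at their highest of 12 libraries. By contrast gmnc was at its lowest of the Fsh libraries (3.29 CPM), and foxj1b, at 55.6 CPM, lay among the other Fsh values. In control library 3, 14 of 17 meiotic genes and 6 of 8 spermatogonial genes were below the mean of the other controls. The summed meiotic level there, 3909 CPM, was above the mean of 3665 CPM of the other controls. SYCP1, which weighs most in that sum, was at its highest of 12 libraries (2326 CPM). The 7 Sertoli cell genes summed to 238 CPM in control library 3, the lowest of the controls, against a mean of 353 CPM in the others. DMRT1 weighs most in that sum, so the sum mainly follows this 1 gene. Lowest of the controls there were amh (2.56 CPM), gsdf (3.58 CPM), FSHR (17.3 CPM) and DMRT1 (180 CPM). For inha, igf3 and wt1b another control library was lower. Between the groups, 14 of 17 meiotic genes had a log2 fold change above 0, with a median of 0.12, and none passed the test. Of the 8 spermatogonial and germ line genes 5 were above 0, with a median of 0.03, and none passed the test. At an unadjusted p under 0.05 there were 2, against 17.4% of all tested genes, both lower. These were RET (−1.59 ± 0.38, adjusted p = 0.0530) and SALL4 (−0.41 ± 0.12, adjusted p = 0.107). DESeq2 called both (adjusted p = 0.0031 and 0.0402), beside 5.51% of the genes it tested. Of the leukocyte genes, 5 of 6 had a log2 fold change below 0, with a median of −0.62. One of them, the surface receptor gene cd4-1, fell with Fsh, to 2.00 ± 0.50 CPM in Fsh libraries against 3.91 ± 0.73 CPM in control libraries (log2 fold change −0.97 ± 0.21, adjusted p = 0.0371). With 1 library left out its adjusted p ran from 0.0132 to 0.0920, and was over 0.05 without Fsh library 2, 3, 4 or 6 or control library 2, 4 or 5. The 6 genes summed to 106 ± 70.5 CPM in Fsh libraries, or 77.8 ± 15.0 CPM without Fsh library 5, against 142 ± 46.8 CPM in control libraries. What part cell composition had in the levels of the members was not tested.

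**Figure D4:**
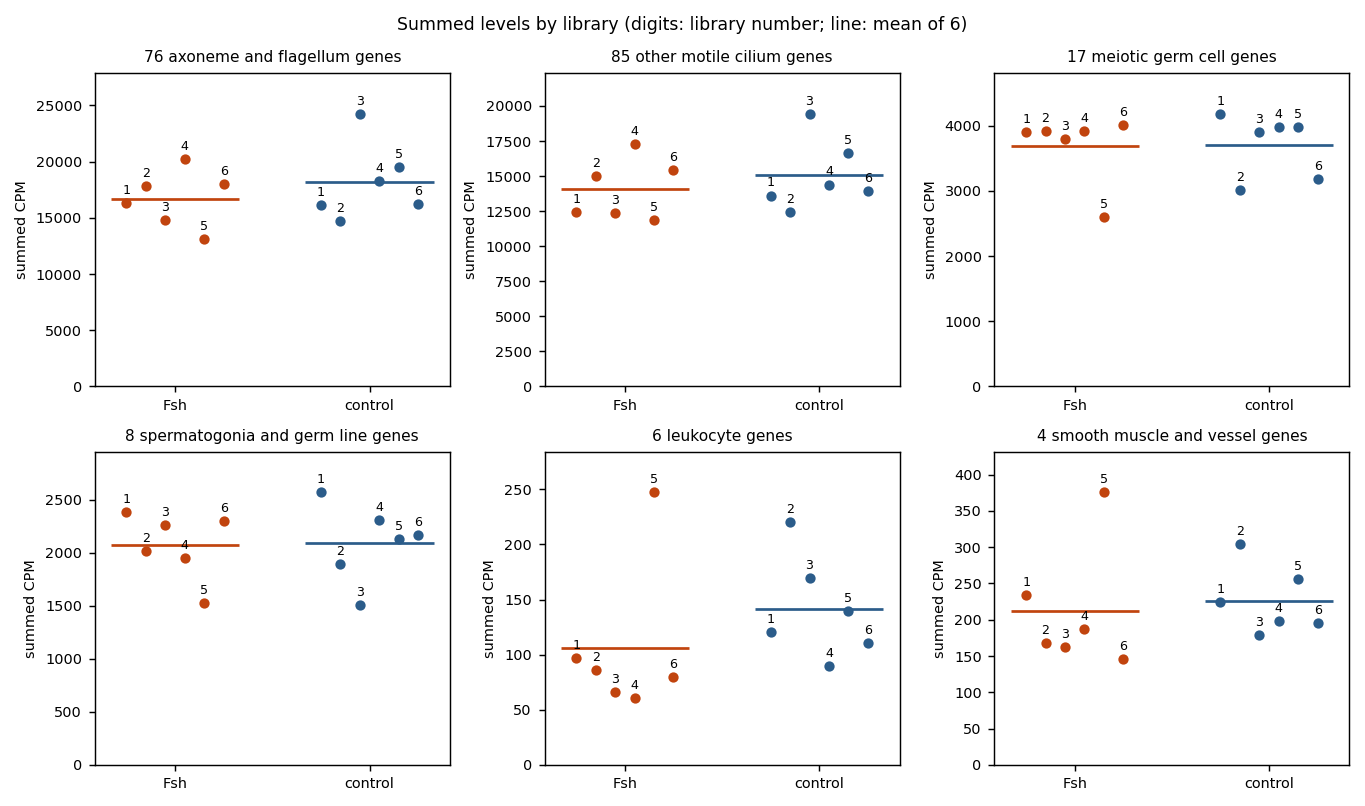
Summed CPM of 6 gene lists in each Fsh library (left in each panel) and each control library (right); digits give the library number and lines the mean of 6. The axoneme and flagellum genes and the other motile cilium genes both peak in control library 3 and are lowest in Fsh library 5, which is also lowest for meiotic genes and highest for leukocyte genes.

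Genes of the motile cilium outside the symbol rule were taken from lists of docking complex, regulatory complex, central pair, assembly, doublet, intraflagellar transport, transcription and sperm tail genes. Of 87 matched gene IDs, 85 were tested, 0 were called higher, beside 0.865% of all tested genes, and 1 was called lower, beside 0.766%, with a median log2 fold change of −0.10; 61 of 85 were below 0. They followed the same libraries, with Fsh library 5 below the mean of the other Fsh libraries in 73 of 85 and control library 3 above the mean of the other controls in 73 of 85. The called gene was KIF3A, a motor subunit of the kinesin that carries cargo out along the cilium, which fell with Fsh. It had 5.97, 7.05 and 11.7 CPM in Fsh libraries, against 10.8, 16.6 and 33.4 CPM in control libraries. All 6 Fsh values lay below the control mean, and the ranges overlapped slightly. The log2 fold change was −1.19 ± 0.27 (adjusted p = 0.0421), and leaving out 1 library at a time gave adjusted p from 0.0265 to 0.100, over 0.05 in 8 of 12 cases: without control library 1, 3, 4 or 5, or Fsh library 1, 2, 3 or 6.

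The transcription factors that switch on the axonemal genes did not pass the test. Of 7 tested genes on the list of regulators, 4 had a log2 fold change below 0, the lowest being −0.55, and 3 above. At an unadjusted p under 0.05 there were 3, against 17.4% of all tested genes: 2 lower, and foxj1b higher. Limma-voom with quality weights called 2 of the 7, foxj1b among them, and 10.4% of all tested genes. The 2 lower genes fell outside the naming rule and are not named here, so foxj1b does not stand for the list. The rule also named foxj1a, which was not among the matched gene IDs. The ciliary regulator foxj1b had 49.7, 69.1 and 89.4 CPM in Fsh libraries and 33.7, 42.0 and 65.1 CPM in control libraries. All 6 Fsh values were above the control mean, while control libraries 2, 3 and 6 lay among the Fsh values. Its log2 fold change was 0.62 ± 0.20 with an adjusted p of 0.120. DESeq2 gave an adjusted p of 0.0469, limma-voom with quality weights 0.00953, and limma-voom alone 0.108. With 1 library left out the adjusted p from edgeR ran from 0.0639 to 0.242. Without control library 3 and Fsh library 5 together, a choice made after the values were seen, edgeR gave 0.0405. RFX2, which mouse spermatids need to express ciliary genes, averaged 174 ± 36.0 CPM with Fsh and 182 ± 41.7 CPM in controls (adjusted p = 0.891). The central pair gene hydin averaged 1050 ± 231 CPM with Fsh and 1271 ± 327 CPM in controls, a log2 fold change of −0.27 ± 0.17 (adjusted p = 0.449) with all libraries and of −0.13 without control library 3.

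Other genes of these lists with small p were on the lower side. SPATA17, a testis gene with calmodulin-binding motifs, averaged 62.0 ± 8.82 CPM with Fsh and 92.9 ± 24.9 CPM in controls (log2 fold change −0.58 ± 0.17, adjusted p = 0.105), and pierce1, a protein inside the doublets, averaged 193 ± 58.7 CPM with Fsh and 274 ± 47.3 CPM in controls (−0.50 ± 0.18, adjusted p = 0.177). SPATA17 had an adjusted p of 0.0365 with DESeq2, of 0.0198 with limma-voom and quality weights, and of 0.128 with limma-voom alone. With 1 library left out its adjusted p from edgeR ran from 0.0322 (without control library 2) to 0.224. For pierce1 the adjusted p was 0.0281 with limma-voom and quality weights, 0.102 with DESeq2 and 0.136 with limma-voom alone. The assembly factor ttc12 had an estimate of −0.26 ± 0.13 and the regulatory complex gene iqca1 of −0.28 ± 0.14, with adjusted p of 0.320 and 0.330. The docking complex gene odad3 had an estimate of −0.15 ± 0.17.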

How the data were processed

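Total RNA of testis tissue was sequenced after library preparation with a TruSeq RNA kit, per the labels' protocols. CASAVA 1.8, STAR 2.3, HTSeq and the Zv9 build are named in the submitters' processing notes; which annotation, strand setting and rule for multiply matching reads were used is not stated there. Each deposited table holds raw counts per Ensembl gene, whole numbers that the authors left without normalization. Counting of overlapping genes and near copies is therefore uncertain: in RefSeq's table (assembly GRCz12tu, another build, used for names and neighbours only) 43 of 71 matched members overlap another gene.

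Counts were analysed in R 4.3.3 with edgeR 4.0.16 (filterByExpr by group, TMM, glmQLFit, glmQLFTest, no covariates, Benjamini-Hochberg over 19317 genes, threshold 0.05). All adjusted p of single genes are edgeR's unless another tool is named. The SE is the log2 fold change divided by the square root of F. Alternatives used DESeq2 1.42.0 and limma 3.58.1, other scalings and filters, and each library left out. The code was tested on simulated counts with known changes. There edgeR called 13 of 80 changes of 1.5-fold, 26 of 55 of 2-fold and 58 of 59 of 4-fold. Of its 103 calls, 6 were false. Most changes of 1.5-fold were thus missed, so the absence of a call does not exclude one. Lists, members and tests were chosen with earlier results of these data known. Members were named by small p (10), level (10), fold (3 each way), spread (3) and, in each role, the highest level and smallest p. From the other cilium lists, foxj1b, RFX2, hydin and in each list the called gene or the one with the smallest p were named; 1 result under this rule is not reported here. DNAH5, dnah9l, SPAG6, cfap126, CFAP91, spag1a, SPAG9, spag9a, epcam, krt8, krt18a.1 and gmnc, with short remarks on other members, were added after their values were seen. Lengths were not available, so levels per length, planned, were not computed. Symbols covered 21939 of 33737 IDs. Replicates of a group differed by more than counting noise in every pair (chi-square per degree of freedom 5.43 to 43.0).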

Additional observations from a re-analysis of the deposited data

Results flagged for a closer look

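Of 84 groups of 6 libraries (41 named genes and the summed level of the members, in both treatments), 11 held a library far from the others by Dixon's criterion. Chance flags about 1 in 20 groups, but the named genes were chosen partly for spread and fold, so the number is not read against that rate. Fsh library 4 was the lowest of its group in DNAH11 (0.753 CPM, others 2.00 to 2.24) and the highest in dnaaf3 (97.0 CPM, others 30.3 to 54.2), cfap70 (292 CPM, others 154 to 192) and hydin (1515 CPM, others 904 to 1010). Fsh library 5 was the lowest in DNAL1 (ENSDARG00000034042) at 76.9 CPM, with the others at 102 to 114. Control library 3 was the highest of its group in CFAP299 (315 CPM, others 127 to 182), DNAH10 (905 CPM, others 547 to 674), hydin (1892 CPM, others 988 to 1309) and odad3 (428 CPM, others 234 to 301). Control library 2 was the lowest in cfap70 (87.4 CPM, others 162 to 196), and control library 5 the highest in pierce1 (365 CPM, others 231 to 280).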

How the results depend on the processing

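Over 25 alternatives, 0 members were called higher in all, and 0 were called lower in all but limma-voom with quality weights (2). Calls over all genes were 167 higher and 148 lower; they were 527 higher and 534 lower with DESeq2, 999 and 1003 with limma-voom quality weights, 10 and 8 against a 1.5-fold change, 261 and 308 without control library 3 and Fsh library 5, and 58 to 373 higher and 37 to 441 lower with 1 library left out. Among other motile cilium genes, the higher count was 1 with DESeq2, with quality weights and without both libraries; the lower count was 3 with DESeq2, 4 with quality weights, 0 against a 1.5-fold change, and 0 to 2 with 1 library left out. Whether replicate numbers pair the libraries was not settled by the values. Same-numbered libraries had correlations of 0.022 to 0.264, and 2 of 6 Fsh libraries matched their own number best. With a replicate block, 177 of all tested genes were called higher and 204 lower. In that fit 0 members were called and 4 had an unadjusted p under 0.05. The median log2 fold change of the members was −0.07 there. Leaving out 1 library moved the estimate by over 1.5 times, or past 0, in 27 of 41 named genes. The estimate changed sign in 13 of 41 named genes, and none of these genes was called. Their main estimates ran from −0.22 (cfap74) to 0.10 (SPAG7). With scaling by library size, which moved the median of all tested genes to 0.03, DNAH10 (0.0094) and ROPN1L (0.0273) changed sign. With upper quartile scaling ROPN1L did (0.0030). With quality weights DNAH10 (0.0132), CFAP43 (0.0198), ROPN1L (0.163) and tektl1 (0.0039) did. Leaving out both control library 3 and Fsh library 5 raises most members' estimates by construction. Without both libraries the genes were dnah5l (0.105), DNAH10 (0.144), CFAP43 (0.148), RSPH4A (0.0063), cfap74 (0.0419), DNAI1 (0.0893), ROPN1L (0.126), tektl1 (0.0565), RFX2 (0.0968) and odad3 (0.0575). RSPH4A, cfap74 and odad3 changed sign only there. The estimate for dnaaf19 was 0.114 there, with its sign kept. With 1 library left out the estimates ran from −0.164 to 0.0426 for dnah5l, −0.138 to 0.0668 for DNAH10, −0.151 to 0.0644 for CFAP43, −0.0864 to 0.0713 for dnaaf19, −0.279 to 0.0010 for DNAI1, −0.0273 to 0.140 for SPAG7, −0.0833 to 0.0872 for ROPN1L, −0.140 to 0.0147 for tektl1, −0.462 to 0.0166 for DNALI1, −0.171 to 0.0380 for RFX2, −0.191 to −0.0155 for RSPH4A, −0.309 to −0.0429 for cfap74 and −0.259 to −0.0065 for odad3. The cause of these shifts was not tested.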
